A study of Mus musculus with 64 samples.

Results

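The genes described here were the matrix metalloproteinases (Mmp), the ADAM and ADAMTS proteases, the ADAMTS-like proteins (Adamtsl) and the tissue inhibitors of metalloproteinases (Timp). They were measured in mammary tumors of PyVT mice with and without loss of Abi1. Members were all protein-coding genes whose symbol begins with Mmp, Timp, Adam, Adamts or Adamtsl followed by a digit, which gave 84 of the 55385 genes counted: 22 Mmp, 34 Adam, 19 Adamts, 5 Adamtsl and 4 Timp genes. The rule used names only and no measured value.

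Stranded total RNA was sequenced from 8 tumors of 4 PyVT-positive mice, 2 tumors from each mouse. The PyVT (polyoma middle T) oncogene starts mammary tumors in every mouse of the series, the Abi1 allele is floxed, and Cre, where present, is driven by the MMTV promoter, which is active mainly in mammary epithelium. G144 was Abi1 fl/wt Cre- and served as the heterozygous control, G164 was fl/wt Cre+, G184 was fl/fl Cre- and served as the homozygous control, and G174 was fl/fl Cre+. The study's pathology records place G144 and G174 among the younger mice and G164 and G184 among the older mice. With 1 mouse per genotype, genotype, age and mouse cannot be told apart, and every p-value below measures the spread between tumors of a mouse.

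Metalloproteinases of this clan cut their substrates with a zinc ion held by histidines in the catalytic site. MMPs degrade collagen, laminin and other matrix proteins, ADAMs release growth factors and receptors from the cell surface, ADAMTS enzymes trim procollagens and cut proteoglycans, and TIMPs block the catalytic site. In mammary tumors much of the MMP output comes from fibroblasts and infiltrating leukocytes rather than from the carcinoma cells, so that levels in whole tumors depend on all of these cells. In bulk tumors, fewer cells of a type and less RNA per cell cannot be told apart.

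The zinc-binding stretch was searched in the coding sequence of the GENCODE M21 transcripts (GRCm38), as a histidine-glutamate pair followed at fixed spacing by 2 more histidines. It was found in 22 of 22 Mmp genes, 19 of 19 Adamts genes and 21 of 34 Adam genes, and in none of the 5 Adamtsl or 4 Timp genes. The coding bases are shown for 5 members that carry the main results or the highest level, with the 3 histidine codons in capitals.
Mmp3: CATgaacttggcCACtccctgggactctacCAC
Mmp25: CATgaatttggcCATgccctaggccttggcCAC
Adam10: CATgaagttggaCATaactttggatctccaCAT
Adamts14: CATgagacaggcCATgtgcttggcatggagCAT
Adamts18: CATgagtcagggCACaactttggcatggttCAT
On GRCm38 these codons lie at chr9:7449775-7449807 (plus strand) in Mmp3, chr17:23632843-23632875 (minus strand) in Mmp25, chr9:70754296-70761585 (plus strand) in Adam10, chr10:61225465-61227123 (minus strand) in Adamts14 and chr8:113767168-113771052 (minus strand) in Adamts18. In the last 3 genes an intron divides the stretch.

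On chromosome 9, 9 of the 22 Mmp genes sit side by side, from Mmp13 (start 7272514) to Mmp7 (end 7699585), a block of secreted collagenases, stromelysins and matrilysin that AP-1 factors are known to induce. RefSeq promoter windows of 300 bases (250 before to 50 after the start, GRCm38.p6) matched 53 of the 84 members. The AP-1 consensus TGANTCA, which reads the same on both strands, occurred in 7.81% of all 32851 windows and in 12 of the 58 windows of members. Among those windows were those of Mmp3, Mmp7, Mmp10, Mmp12, Mmp13, Mmp1b and Mmp20, which all belong to the cluster and which all also held TATAAA (13.6% of all windows). The letters do not overlap between these motifs. Stretches from 100 bases before to 20 bases after the start are shown for 5 of these cluster genes with enough counts to test. TGANTCA is in capitals.
Mmp13: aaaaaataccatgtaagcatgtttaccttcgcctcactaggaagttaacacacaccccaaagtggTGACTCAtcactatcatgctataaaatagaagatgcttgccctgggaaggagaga
Mmp12: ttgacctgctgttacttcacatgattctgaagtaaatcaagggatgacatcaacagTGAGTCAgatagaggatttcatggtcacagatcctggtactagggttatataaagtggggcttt
Mmp3: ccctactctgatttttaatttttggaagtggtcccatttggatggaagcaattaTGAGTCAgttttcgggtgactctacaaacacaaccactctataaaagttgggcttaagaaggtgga
Mmp10: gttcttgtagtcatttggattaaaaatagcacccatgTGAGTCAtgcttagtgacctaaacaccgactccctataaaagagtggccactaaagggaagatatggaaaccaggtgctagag
Mmp7: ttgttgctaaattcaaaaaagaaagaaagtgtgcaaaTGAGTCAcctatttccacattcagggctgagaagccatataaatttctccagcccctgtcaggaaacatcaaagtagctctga
They are chr9:7272414-7272533, chr9:7347274-7347393, chr9:7445722-7445841, chr9:7502242-7502361 and chr9:7691990-7692109, all on the plus strand. A further window listed for Mmp12 and another for Mmp7 did not hold TGANTCA. The window listed for Mmp8, a tested gene of the same cluster, held TATAAA but not TGANTCA.

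The windows of Adamts14 and Adamts18, the ADAMTS genes with the largest called changes, held neither TGANTCA nor TATAAA. Both held GGGCGG, the core of the GC box (either strand, 35.7% of all windows), shown here in capitals.
Adamts14: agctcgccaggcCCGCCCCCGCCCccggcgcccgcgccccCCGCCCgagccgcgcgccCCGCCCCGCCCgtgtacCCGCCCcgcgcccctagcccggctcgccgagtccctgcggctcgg
Adamts18: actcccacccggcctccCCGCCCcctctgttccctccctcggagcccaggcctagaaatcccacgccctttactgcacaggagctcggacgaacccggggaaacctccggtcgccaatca
The 2 stretches are chr10:61273400-61273519 and chr8:113848820-113848939, both on the minus strand. A match describes these letters and no binding was measured.

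The libraries held 50346075 to 69264893 gene counts per tumor. Of the 84 members, 61 had enough counts to be tested and 23 did not. Abi1, the targeted gene, had 111 to 130 CPM (counts scaled to a common library size) in the 4 Cre- tumors, 63.1 and 66.7 CPM in G164 and 6.47 and 8.93 CPM in G174. Skeletal muscle markers stood apart in 2 tumors: the 8 genes summed to 549 CPM in tumor 8 of G144 and 843 CPM in tumor 3 of G164, and to 24.5 to 35.2 CPM in the other 6. Epithelial markers (8 genes) summed to 3600 to 4387 CPM in every tumor, with Epcam higher in G174 than in G184, and no gene of the skeletal muscle list was called in either comparison of Cre+ with Cre-. Between the 2 tumors of a mouse the tested members differed by a median of 1.24-fold in G144, 1.21-fold in G164, 1.37-fold in G184 and 1.38-fold in G174.

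The 10 members with the highest level per kilobase of exon were Adam10, Adam9, Timp2, Timp3, Mmp2, Mmp15, Adam17, Adamts1, Mmp14 and Timp1, at a mean over the 8 tumors of 52.8, 39.0, 36.6, 33.2, 30.7, 22.4, 19.6, 16.1, 16.0 and 11.6 CPM per kilobase. The sheddases Adam10 and Adam17, which cut Notch, TNF and EGF family ligands, were among the steadiest of these. Adam10 read 261 and 300 CPM in G144, 247 and 241 in G164, 222 and 283 in G184, and 267 and 253 in G174. Adam17 stayed between 123 and 154 CPM in the 8 tumors. Neither passed the test in any comparison, with log2 fold changes of -0.20 ± 0.14 (SE) and -0.13 ± 0.09 in the heterozygous comparison and of 0.04 ± 0.14 and 0.05 ± 0.09 in the homozygous comparison. Neighbours in this order such as Adam9, Timp2 and Timp3 overlapped in their tumor values, and Timp3 alone ran from 8.52 to 83.7 CPM per kilobase.

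**Figure D1:**
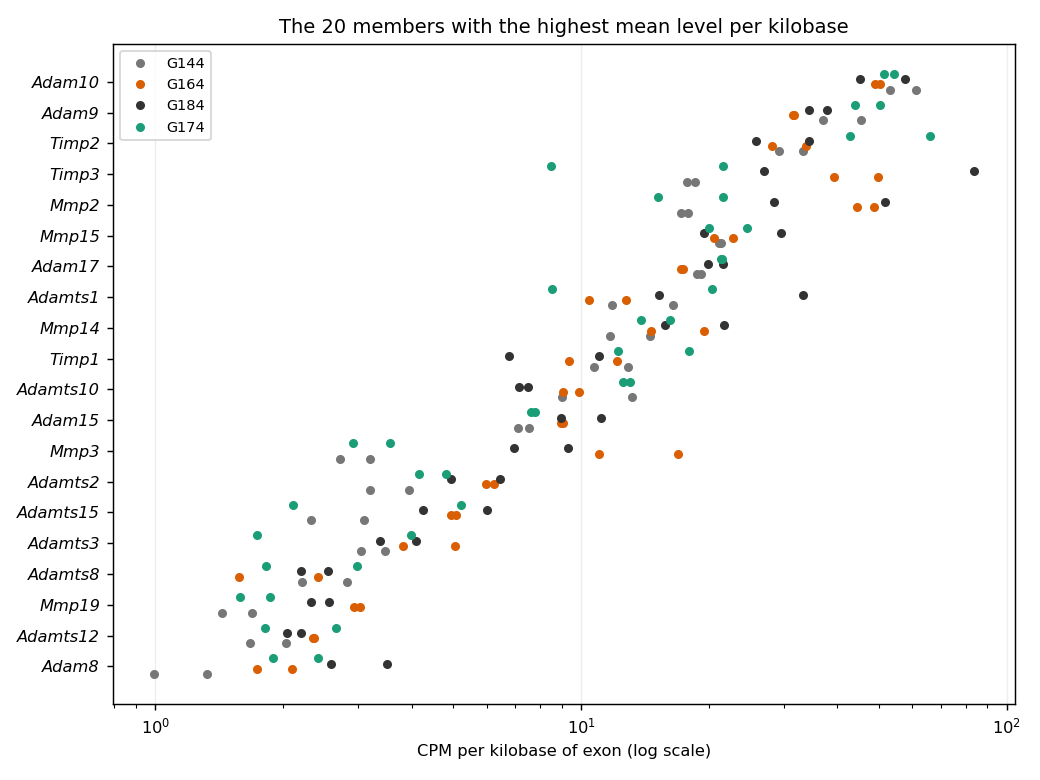
Level of the 20 highest members in CPM per kilobase of exon (log axis), with 1 point for each of the 8 tumors, coloured by mouse. Adam10 leads at a mean of 52.8 CPM per kilobase and its tumors lie close together, whereas the tumors of Timp3, Mmp2 and Mmp3 spread widely.

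Summed over all members of a family, the Mmp level was 60.5 and 66.2 CPM per kilobase in G144, 111 and 113 in G164, 83.2 and 126 in G184, and 74.7 and 65.7 in G174. Mmp2 alone made up a mean of 17.48, 46.7, 40.12 and 18.35 CPM per kilobase of these sums, in the same order of mice. In the Mmp sum the tumors of G164 and G184 were all above those of G144 and G174. The summed Timp level did not divide the mice this way (58.4 to 124.9 CPM per kilobase), and the Timp sum over the Mmp sum was 1.06 and 0.883 in G144, 0.770 and 0.772 in G164, 0.765 and 0.988 in G184, and 1.16 and 1.25 in G174. The Adam sum was the most even, from 117 to 143 CPM per kilobase.

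The heterozygous comparison set G164 against G144, to ask what the loss of a single Abi1 allele changes. Of 61 members tested, 3 were higher and 1 was lower in the fl/wt Cre+ tumors at an adjusted p under 0.05, while 2.72% of all 22187 genes tested were called higher and 1.29% lower. The higher members were the gelatinase Mmp2, the stromelysin Mmp3 and Mmp19. The lower member was Adamts18. The median log2 fold change of the 61 members was 0.42 and that of all genes tested was 0.01. The 4 calls give the order of the next paragraphs, together with the homozygous comparison of G174 against G184, which asks the same of the loss of both alleles.

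In the homozygous comparison 4 members were higher and 4 were lower in the fl/fl Cre+ tumors, against 5.44% and 7.7% of all genes. The higher members were Adamts14, Adamts18, Adamts10 and Adam28, and the lower were Mmp2, Mmp3, Mmp25 and Adamts6. Mmp2, Mmp3 and Adamts18 were thus called in both comparisons, each in opposite directions. The median log2 fold change was -0.35 over the members and 0.00 over all genes. The signs of the 2 comparisons, which share no tumor, were opposite for 54 of the 61 members (88.5%) and for 73.6% of all genes tested.

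**Figure D2:**
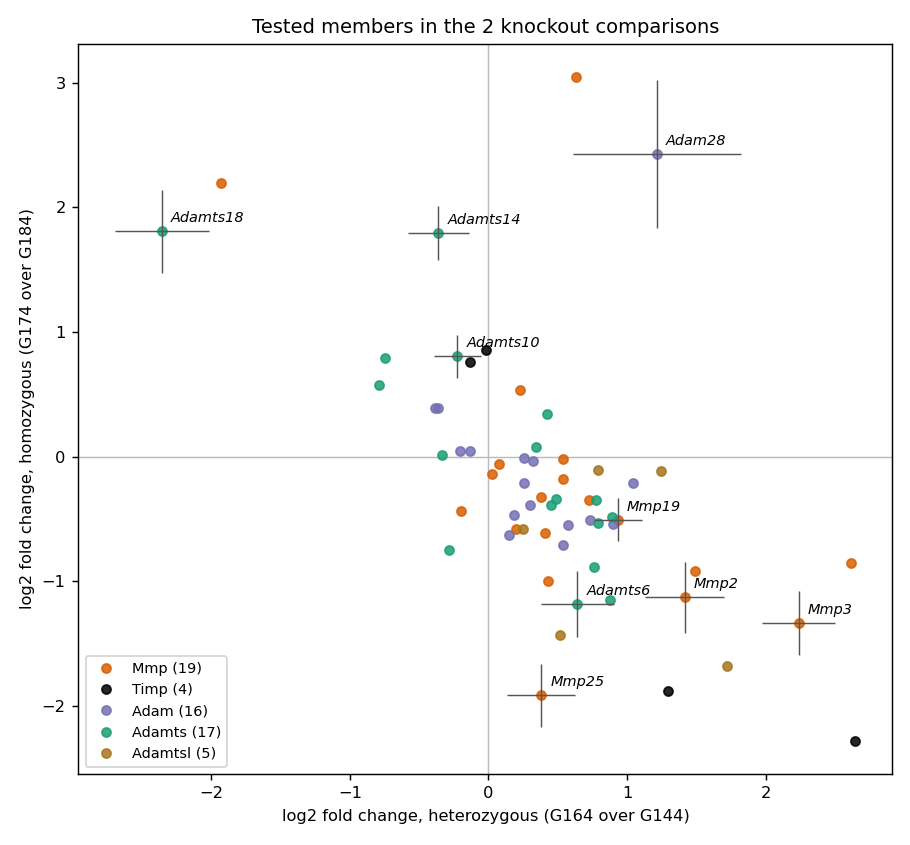
Log2 fold change of the 61 tested members, heterozygous along x and homozygous along y, coloured by family, with SE bars and names for members past the threshold in either. Mmp2, Mmp3 and Mmp19 lie at lower right (higher in G164, below 0 in G174) and Adamts18 at upper left.

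Mmp3, stromelysin 1, which cuts laminin, fibronectin and proteoglycans and activates other pro-MMPs, had 5.74 and 4.89 CPM in G144, 19.9 and 30.4 in G164, 12.5 and 16.8 in G184, and 6.4 and 5.25 in G174. The tumors of G164 and G184 were all higher than the others and the groups did not overlap. Mmp3 was 4.72-fold higher in the heterozygous comparison (log2 2.24 ± 0.26, adjusted p = 0.0160) and fell by 1.33 ± 0.26 on the log2 scale in the homozygous comparison (adjusted p = 0.0211). It was also 2.76-fold higher in G184 than in G144 (adjusted p = 0.0177), so that the Cre- mice differed as well.

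Mmp2, gelatinase A, which cuts denatured collagen and basement membrane collagen, had 57.8 and 60.1 CPM in G144, 165 and 150 in G164, 95.7 and 175 in G184, and 72.5 and 51.2 in G174. The lowest tumor of G164 and G184 was above the highest of the other mice, and the tumors of G184 differed from each other by 1.83-fold. The log2 fold change was 1.42 ± 0.29 (adjusted p = 0.0456) in the heterozygous comparison and -1.13 ± 0.28 (adjusted p = 0.0441) in the homozygous comparison. Between the Cre- mice it was 1.20 ± 0.28 higher in G184 (adjusted p = 0.0388).

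Mmp19, a secreted MMP that cuts basement membrane proteins, had 5.06 and 5.95 CPM in G144, 10.7 and 10.3 in G164, 9.03 and 8.21 in G184, and 6.57 and 5.59 in G174. The tumors of G164 were the highest and agreed closely. The log2 fold change was 0.93 ± 0.17 (adjusted p = 0.0390) in the heterozygous comparison, and -0.50 ± 0.17 (adjusted p = 0.0955) in the homozygous comparison, which missed the threshold by edgeR and passed it by DESeq2 (adjusted p = 0.0445).

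Mmp25, a membrane-anchored MMP found in leukocytes, had 1.86 and 2.69 CPM in G144, 2.94 and 2.98 in G164, 6.14 and 5.0 in G184, and 1.58 and 1.37 in G174. The tumors of the fl/fl Cre- mouse were the highest and those of the fl/fl Cre+ mouse the lowest of the 8. Mmp25 fell by 1.91 ± 0.25 on the log2 scale in the homozygous comparison (adjusted p = 0.00760), the largest decrease among the members called there. Its log2 fold change in the heterozygous comparison was 0.38 ± 0.25 (adjusted p = 0.375), and between the Cre- mice G184 had the higher level (log2 1.29 ± 0.25, adjusted p = 0.0218).

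Adamts18, a secreted ADAMTS implicated in basement membrane turnover and branching of ducts, ran the other way. It had 12.6 and 8.64 CPM in G144, 1.52 and 2.63 in G164, 1.96 and 1.85 in G184, and 7.77 and 5.59 in G174. Every tumor of G144 and G174 was above every tumor of G164 and G184, with 5.59 CPM as the lowest of the former and 2.63 CPM as the highest of the latter. The log2 fold change was -2.35 ± 0.34 (adjusted p = 0.0257) in the heterozygous and 1.81 ± 0.33 (adjusted p = 0.0189) in the homozygous comparison, and the Cre- mice differed by 5.58-fold, with G184 lower (log2 -2.48 ± 0.34, adjusted p = 0.00900).

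Adamts14, which removes the amino-terminal propeptide from fibrillar procollagens, had 2.53 and 2.42 CPM in G144, 2.19 and 1.67 in G164, 2.0 and 1.86 in G184, and 7.28 and 6.16 in G174. Both fl/fl Cre+ tumors were far above the other 6. Adamts14 was 3.47-fold higher in the homozygous comparison (log2 1.80 ± 0.22, adjusted p = 0.00619), with no call in the heterozygous comparison (log2 -0.36 ± 0.22, adjusted p = 0.344) or between the Cre- mice (log2 -0.36 ± 0.22, adjusted p = 0.302).

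Adamts10 and Adamts6, related enzymes that bind fibrillin microfibrils, went in opposite directions in the homozygous comparison. Adamts10 had 109 and 74.5 CPM in G144, 81.8 and 75.0 in G164, 61.8 and 59.0 in G184, and 103 and 108 in G174. The tumors of G184 were the lowest, and the log2 fold change was 0.80 ± 0.17 (adjusted p = 0.0280). Adamts6 had 5.61 and 6.99 CPM in G144, 11.0 and 8.65 in G164, 12.1 and 15.5 in G184, and 7.31 and 4.82 in G174. The tumors of G184 were here the highest, and the log2 fold change was -1.18 ± 0.26 (adjusted p = 0.0323).

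Adam28, an ADAM of lymphocytes and epithelia, was low, with 14 to 143 counts per tumor. It had 0.259 and 0.251 CPM in G144, 0.648 and 0.545 in G164, 0.197 and 0.326 in G184, and 2.18 and 0.647 in G174. The groups did not overlap in the homozygous comparison, but the tumors of G174 differed by 3.36-fold and the lower of them was as low as the higher tumor of G164. The log2 fold change was 2.43 ± 0.59 (adjusted p = 0.0406).

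**Figure D3:**
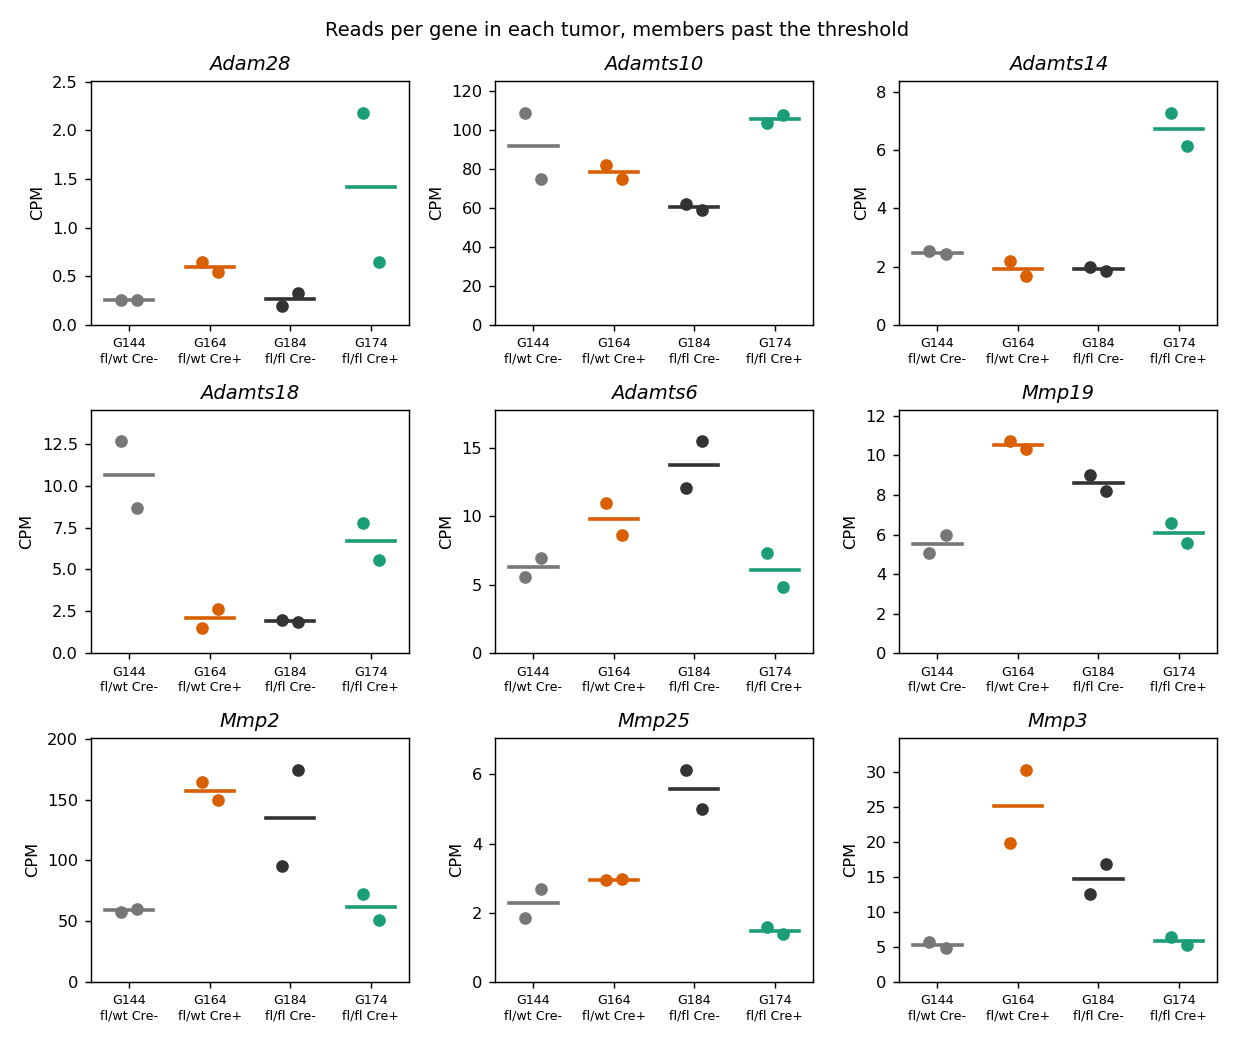
CPM in each tumor (points) and each mouse's mean over its 2 tumors (lines) for the 9 members past the threshold in the heterozygous or the homozygous comparison, each on its own axis from 0. Mmp2, Mmp3 and Mmp19 are high in G164 and G184, Adamts18 is high in G144 and G174, and Adamts14 is high in G174 alone.

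The calls depended on single tumors. In the heterozygous comparison, leaving out either tumor of G144 or tumor 6 of G164 removed all 4 calls, and leaving out tumor 3 of G164, the tumor with the highest muscle marker sum, left Mmp3 alone. Mmp19 was also lost without either tumor of G184. The highest adjusted p over the left-out tumors was 0.181 for Adamts18, 0.167 for Mmp3, 0.219 for Mmp19 and 0.233 for Mmp2. In the homozygous comparison Adamts14 and Mmp25 stayed past the threshold without any single tumor (highest adjusted p 0.0480 and 0.0331). The other 6 were lost in 3 to 7 of 8 such fits. All 6 were lost without tumor 9 of G184, after which 2 members were called, and Adam28, Adamts10, Adamts18, Mmp2 and Mmp3 without tumor 1 of G174, after which 4 were. Each tumor of G164 was needed for the calls of Adam28, Adamts10, Adamts6 and Mmp2, tumor 6 of G174 for those of Adamts10, Adamts6, Mmp2 and Mmp3, tumor 6 of G184 for those of Adam28, Adamts10, Adamts18 and Adamts6, and both tumors of G144 for those of Adam28 and Mmp2. Their highest adjusted p was 0.143 for Adam28, 0.140 for Adamts10, 0.111 for Adamts18, 0.162 for Adamts6, 0.173 for Mmp2 and 0.114 for Mmp3. When only G174 and G184 were fitted, Adam28, Adamts6, Mmp2 and Mmp3 missed the threshold (adjusted p = 0.112, 0.0790, 0.118 and 0.0512), as did Adam28 in 1 sequencing run alone (adjusted p = 0.0771).

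The 4 TIMP genes were all tested and none passed the threshold in the heterozygous or the homozygous comparison by edgeR. At an unadjusted p under 0.05 there were 1 and 4 of them, and DESeq2 called 0 and 2 (Timp2 higher and Timp3 lower, adjusted p = 0.00423 and 0.0342). Timp2, which inhibits MMPs and also helps Mmp14 to activate pro-Mmp2, had 130 and 114 CPM in G144, 131 and 110 in G164, 100 and 134 in G184, and 257 and 167 in G174. Both tumors of G174 were the highest, with a log2 fold change of 0.86 ± 0.23 (adjusted p = 0.0537) in the homozygous comparison. Timp1, induced in wounds and inflammation, had 11.4 and 9.52 CPM in G144, 10.8 and 8.34 in G164, 9.78 and 6.03 in G184, and 10.8 and 15.9 in G174. The values of G174 lay above those of G164 and G184, the other pairs of mice overlapped, and the log2 fold changes were -0.13 ± 0.30 and 0.76 ± 0.30 (adjusted p = 0.820 and 0.133).

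Timp3, which is held in the matrix and also inhibits Adam17 and ADAMTS proteoglycanases, had 144.2 and 150.6 CPM in G144, 320 and 405 in G164, 219 and 682 in G184, and 69.4 and 175 in G174. The tumors of G164 and G184 were all above the others, and the tumors of G184 differed by 3.12-fold. The log2 fold changes were 1.30 ± 0.57 (adjusted p = 0.214) and -1.88 ± 0.58 (adjusted p = 0.0758). Timp4, an inhibitor found in heart and fat, had only 62 counts over the 8 tumors on its own strand, 2 and 3 in G144, 6 and 26 in G164, 13 and 8 in G184, and 2 and 2 in G174. Counted without strand it had 868. Timp4 overlaps Syn2, a gene of the opposite strand with 5361 counts, and the source of the added reads was not tested.

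The difference between the comparisons, homozygous minus heterozygous, passed the threshold for 6 members in the positive and 15 in the negative direction, against 12% and 13.1% of all genes. The median was -0.77 on the log2 scale over the members and -0.02 over all genes. The same contrast sets G144 and G174 together against G164 and G184, so that it cannot be told apart from a contrast of the younger with the older mice. The differences of Mmp2, Mmp3, Mmp19, Mmp25, Adamts14 and Adamts18 stayed past the threshold without any single tumor and under all other settings tried. They were -2.55 ± 0.40, -3.57 ± 0.37, -1.44 ± 0.24, -2.30 ± 0.35, 2.16 ± 0.31 and 4.16 ± 0.47, with adjusted p-values of 0.00710, 0.00210, 0.00894, 0.00636, 0.00511 and 0.00280.

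Of 7 proteoglycan-cleaving ADAMTS genes the difference was called in 3, 2 lower (Adamts5 and Adamts9) and 1 higher (Adamts4). In the same contrast 13.1% of all genes were called lower and 12% higher. Adamts1, Adamts8, Adamts15 and Adamts20 were not called by edgeR (log2 -0.46, 0.35, -1.37 and -1.64, adjusted p = 0.638, 0.568, 0.113 and 0.101). Of 3 procollagen-processing genes Adamts2 was called lower, Adamts14 higher, and Adamts3 was not called (log2 -0.84, adjusted p = 0.262). Adamts15 was called by DESeq2 (adjusted p = 0.0390). Adamts5, an aggrecanase, had 8.30 and 11.1 CPM in G144, 16.5 and 17.1 in G164, 17.8 and 13.9 in G184, and 9.55 and 12.4 in G174. Adamts9, which cuts versican, had 13.4 and 16.1 CPM in G144, 19.2 and 22.3 in G164, 16.3 and 20.5 in G184, and 15.2 and 13.9 in G174. Adamts2, the main procollagen N-proteinase of skin, had 36.8 and 29.8 CPM in G144, 58.4 and 55.8 in G164, 46.3 and 60.3 in G184, and 38.9 and 44.9 in G174. In these 3 genes the tumors of G164 and G184 were all above those of G144 and G174. The contrast that chose the genes sets these same mice apart and so favours such a separation. The differences were -1.32 ± 0.30, -0.83 ± 0.24 and -1.13 ± 0.23, with adjusted p-values of 0.0228, 0.0445 and 0.0166. Adamts4, another aggrecanase, went the other way, with 6.67 and 8.64 CPM in G144, 5.24 and 3.88 in G164, 5.97 and 5.98 in G184, and 10.2 and 10.5 in G174, and a difference of 1.54 ± 0.30 (adjusted p = 0.0135). Outside these groups, Adamts6 and Adamts10, described above, differed by -1.83 ± 0.37 (adjusted p = 0.0159) and 1.03 ± 0.24 (adjusted p = 0.0241).

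Among the ADAMs, Adam8, a protease of myeloid cells, had 4.60 and 6.13 CPM in G144, 8.04 and 9.74 in G164, 12.0 and 16.3 in G184, and 8.74 and 11.2 in G174. The tumors of G144 were the lowest and those of G184 the highest, and G184 was higher than G144 by 1.40 ± 0.24 on the log2 scale (adjusted p = 0.0174). The difference between the comparisons was -1.23 ± 0.34 (adjusted p = 0.0388). Adam15, found in epithelium and endothelium, had 43.6 and 46.5 CPM in G144, 55.0 and 55.6 in G164, 55.2 and 68.6 in G184, and 48.0 and 46.9 in G174, a narrow range with a difference of -0.68 ± 0.17 (adjusted p = 0.0288). Adam9, a widely expressed sheddase, ran the other way, with 187 and 152 CPM in G144, 129 and 130 in G164, 141 and 155 in G184, and 207 and 181 in G174. Its difference was 0.77 ± 0.18 (adjusted p = 0.0249). Adam23, which lacks the zinc-binding stretch and acts in adhesion, had 4.8 and 4.7 CPM in G144, 9.40 and 8.36 in G164, 6.38 and 5.25 in G184, and 4.83 and 3.18 in G174. Its difference was -1.44 ± 0.34 (adjusted p = 0.0240), with the tumors of G164 highest.

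Adamtsl1, a matrix protein with no catalytic domain, had 6.67 and 6.22 CPM in G144, 25.5 and 16.9 in G164, 10.3 and 31.0 in G184, and 6.79 and 6.08 in G174. The tumors of G164 and G184 were above the others without overlap, which the contrast that chose this gene favours. The difference was -3.40 ± 0.67 (adjusted p = 0.0146), while the log2 fold changes of 1.72 ± 0.48 and -1.68 ± 0.47 missed the threshold in the single comparisons by edgeR (adjusted p = 0.0871 and 0.0595) and passed it by DESeq2 (adjusted p = 0.00228 and 0.00168). Timp3 differed by -3.18 ± 0.82 (adjusted p = 0.0315) and Timp4 by -4.92 ± 1.12 (adjusted p = 0.0225), and counted without strand the Timp4 difference was 0.00 with an adjusted p of 0.998 (range over the settings 0.00231 to 0.998).

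The other 15 of these 21 calls were lost in at least 1 fit with a tumor left out. Adamts4 was lost without tumor 6 of G164 and Adamtsl1 without tumor 6 of G144, Adamts2 without either tumor of G164, and Mmp10 without any of the 8 tumors. Adam15, Adamts9, Mmp27 and Timp4 were each lost without 7 of the 8. The remaining 7 genes were lost in 3 to 6 of these fits, all of them without tumor 3 of G164, and 8 to 21 members were called over the fits. By DESeq2 the Mmp10 and Mmp27 differences missed the threshold, Mmp27 also in either run alone, Adam8 in 1 run alone, and Adamts9 in the other run and with unstranded counts.

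Of the 9 genes of the Mmp cluster on chromosome 9, 7 were tested. Mmp13, collagenase 3 and the main interstitial collagenase of rodents, had 1.43 and 3.89 CPM in G144, 3.26 and 3.78 in G164, 4.98 and 9.88 in G184, and 7.85 and 1.90 in G174. The tumors of G174 lay 4.14-fold apart and spanned most of the range, and no comparison passed. Mmp12, the macrophage elastase, had 4.86 and 7.92 CPM in G144, 4.38 and 16.8 in G164, 8.96 and 11.1 in G184, and 8.23 and 7.57 in G174, also with no call. Mmp8, the neutrophil collagenase, read 2.04 CPM in tumor 6 and 0.305 in tumor 3 of G164, and 0.141 to 0.606 CPM in the other 6 tumors, again without a call (log2 2.62 ± 0.99, adjusted p = 0.161, and -0.85 ± 1.00, adjusted p = 0.593).

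Mmp10, stromelysin 2, lies next to Mmp3 and was lower in the tumors of G164 and G184 than in the others, at a very low level. It had 8 and 16 counts in G144, 1 and 5 in G164, 2 and 6 in G184, and 22 and 15 in G174. Its difference between the comparisons was 4.12 ± 1.11 on the log2 scale (adjusted p = 0.0364), and this contrast holds counts of 1 and 2. Mmp27, a little studied member of the cluster, was like Mmp3 higher in the tumors of G164 and G184 than in the others. It had 0.183 and 0.233 CPM in G144, 0.496 and 0.674 in G164, 0.324 and 0.249 in G184, and 0.107 and 0.196 in G174. Its difference was -2.41 ± 0.59 (adjusted p = 0.0273). Mmp7, matrilysin, an MMP of glandular epithelium, had 29 and 9 counts in G144, 21 and 34 in G164, 12 and 1 in G184, and 39 and 66 in G174. The tumors of G174 were the highest and those of G184 included a count of 1, and the log2 fold change of 3.04 ± 0.82 in the homozygous comparison did not pass by edgeR (adjusted p = 0.0538) and passed by DESeq2 (adjusted p = 0.0138). Mmp1b had no count in any tumor and Mmp20 had 2 counts in all.

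**Figure D4:**
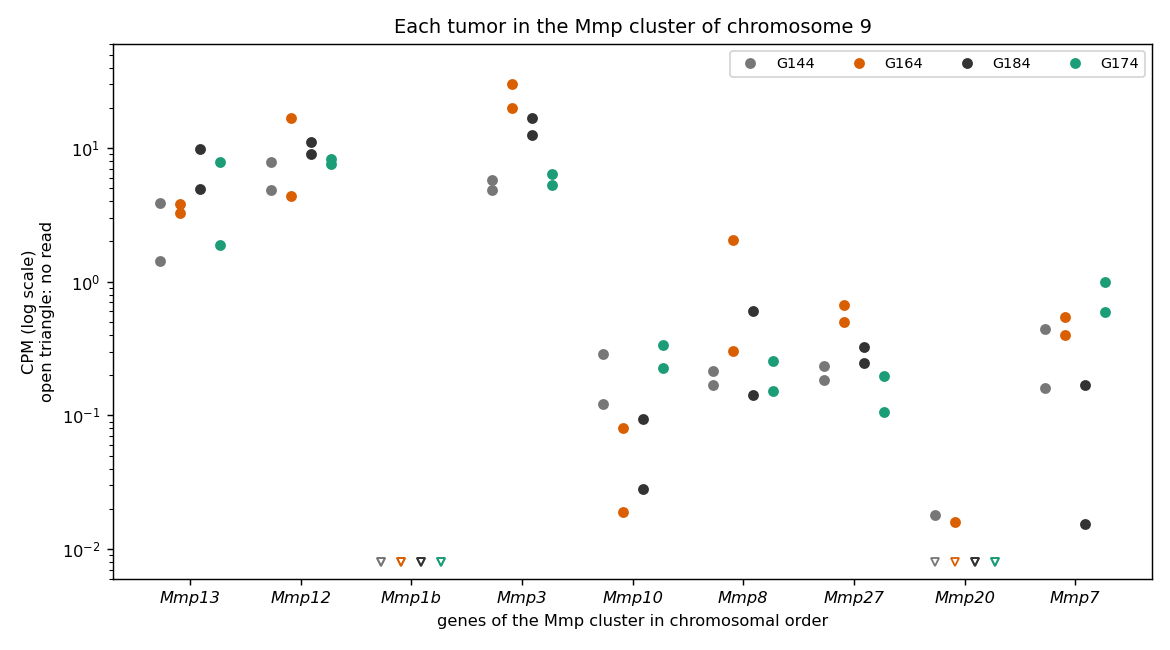
CPM in each tumor (log axis) for the 9 genes of the Mmp cluster in chromosomal order, coloured by mouse, with open triangles for tumors without a read. Mmp3 is higher in G164 and G184 than in the other mice, and its neighbour Mmp10 is lower in them at under 0.34 CPM.

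Mmp9 and Mmp14, which act on gelatin and collagen or on pro-Mmp2, did not pass in any comparison. Mmp9, gelatinase B of neutrophils and macrophages, was named after its values had been seen and had 1.81 and 1.92 CPM in G144, 1.10 and 3.26 in G164, 4.25 and 4.86 in G184, and 1.81 and 11.4 in G174. The tumors of G174 differed by 6.29-fold. Mmp14, the membrane protease that activates pro-Mmp2, had 69.6 to 129 CPM over the 8 tumors (log2 0.38 ± 0.21 and -0.32 ± 0.21, adjusted p = 0.304 and 0.335), and Mmp15, a related membrane MMP, 105 to 159 CPM. Adamts1, a proteoglycanase, had 45.4 to 176 CPM, both extremes being in fl/fl mice.

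Of the 23 members that were not tested, 18 were Adam genes, most of them known from testis, and the others were Adamts13, Adamts19, Mmp1b, Mmp20 and Mmp21. Adamts19 had the most counts of them, 57 over the 8 tumors, followed by Adam5 with 50, Adam3 and Adamts13 with 32 each and Adam30 with 23. Adam7, Adam20, Adam29, Adam34, Adam6a and Mmp1b had 0 counts, which allows up to 3 counts or 0.0423 to 0.0572 CPM in a tumor. Adam2, Adam6b, Mmp21, Adam1b, Adam25, Adam18, Adam24, Adam26a, Adam26b, Adam34l, Adam39 and Mmp20 had 1 to 7 counts in all. These counts are too few to show a difference between mice.

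When the control mice were exchanged, no member passed the threshold by edgeR. This pairing was added after the other results had been seen, and it sets G164 against G184, both older, and G174 against G144, both younger. By edgeR 0 of 61 members were called in each, with 7 and 8 at an unadjusted p under 0.05, and DESeq2 called 0 and 4 (Adam28, Adam8, Adamts14 and Timp2). The shares of all genes at the unadjusted p and by DESeq2 are not given, so these counts do not set the members apart from other genes. Of all genes 0.248% were higher and 0.176% lower in the first pairing, and 0.0361% and 0.0541% in the second. The median log2 fold change of the members was 0.04 and 0.07. Mmp2 read 0.22 ± 0.28 and 0.07 ± 0.28, Mmp3 0.78 ± 0.25 and 0.13 ± 0.25, Adamts18 0.13 ± 0.33 and -0.67 ± 0.32, and Mmp25 -0.91 ± 0.24 and -0.62 ± 0.25. Adamts14 kept the largest value relative to its error, 1.44 ± 0.22 for G174 against G144 (adjusted p = 0.129). The Abi1 counts bear on the labels of the Cre+ mice but do not tell the Cre- mice apart, with a mean of 121 CPM in G144 and 118 in G184 (log2 -0.03 ± 0.16, adjusted p = 0.919), so the labels that pair each Cre- mouse with its Cre+ mouse could not be checked from these counts. All heterozygous and homozygous values above rest on those labels. A p that misses the threshold does not show that these mice were alike.

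The fl/wt and fl/fl Cre- mice, which both keep Abi1, differed from each other in 7 members. Adam8, Adamts2, Adamts6, Mmp2, Mmp25 and Mmp3 were higher in G184 and Adamts18 was lower, against 6.17% and 6.4% of all genes. None of the 7 was called without tumor 6 of G144 or without tumor 9 of G184. Because these control tumors also enter the heterozygous and homozygous comparisons, the same tumors set part of all 3 results.

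**Figure D5:**
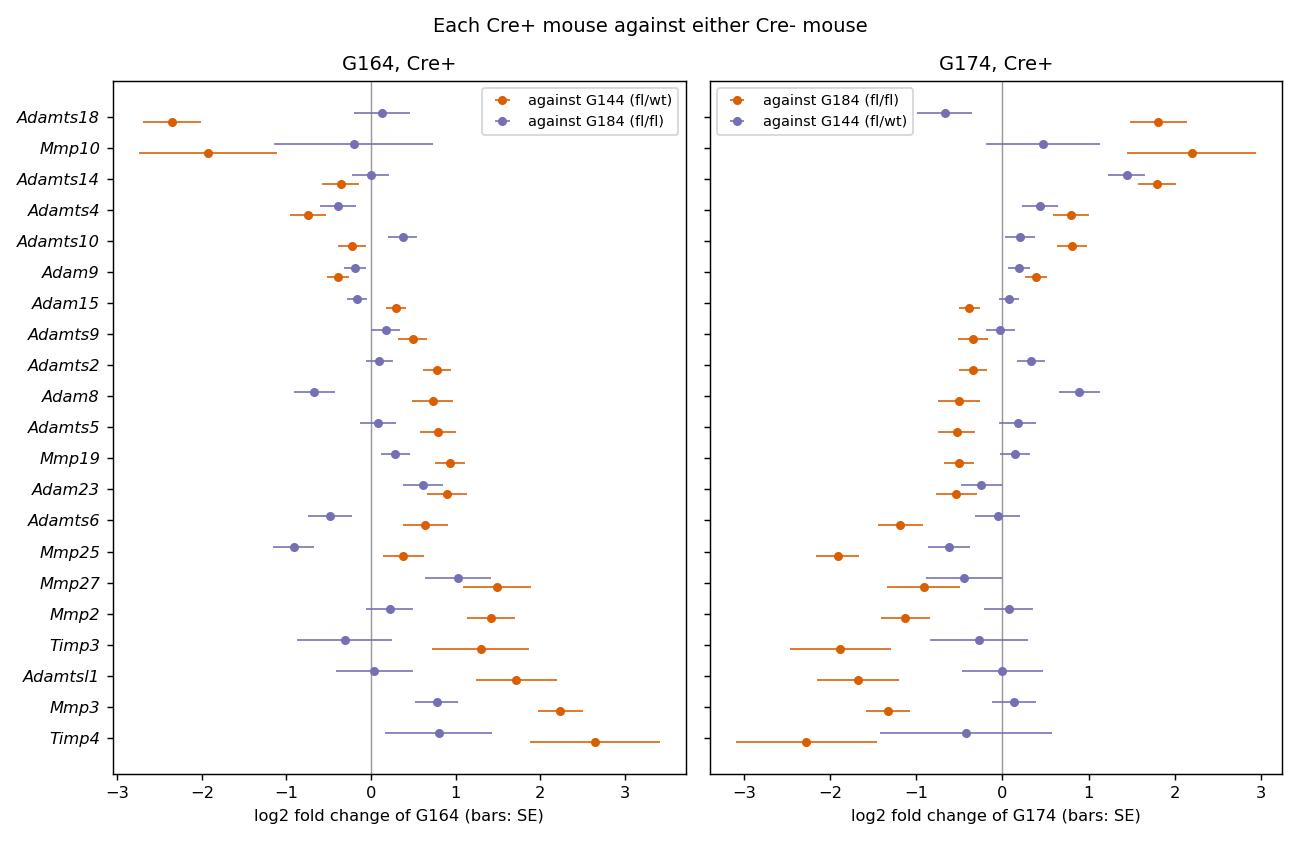
Log2 fold change (point) with its SE (bar) of the 21 members past the threshold in the difference between the comparisons, for G164 (left) and G174 (right), each against its own control (orange) and against the other Cre- mouse (purple). Against the other Cre- mouse most values move towards 0, Adamts18 from -2.35 to 0.13 in G164 and from 1.81 to -0.67 in G174. The contrast that chose these members includes the gap between the Cre- mice, so the choice itself favours this move.

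Markers of several cell types passed in the difference between the comparisons, where 12% of all genes were called higher and 13.1% lower. The difference was called lower in 8 of 8 T cell, 6 of 8 macrophage and dendritic cell and 4 of 10 fibroblast markers (Dcn, Fap, Pdgfra and Postn). It was also lower in 6 of 8 adipocyte, 4 of 7 tested squamous and 3 of 8 endothelial markers, and in Trp63 of the basal list. Among the marker lists only Epcam, an epithelial marker, was called higher, and no skeletal muscle marker was called. For the counts in the single comparisons below, 2.72% of all genes were called higher in the heterozygous and 7.7% lower in the homozygous comparison. Of 10 fibroblast markers, 2 (Pdgfra and Dcn) were higher in the heterozygous and 1 (Dcn) was lower in the homozygous comparison, and the list summed to 1684 to 1957 CPM in G144, 3181 to 3587 in G164, 1928 to 2376 in G184 and 1313 to 2323 in G174, so that the sums of G184 overlapped those of G144 and G174. Of 8 macrophage and dendritic cell markers, 2 were higher and 5 were lower in the 2 comparisons, with sums of 230 to 293, 474.7 to 488, 483 to 688 and 252 to 325 CPM in the same order of mice. Of 8 T cell markers, 5 were higher and 8 lower, with sums of 9.28 to 10.2, 22.9 to 26.9, 20.7 to 22.8 and 6.16 to 6.26 CPM. The fibroblast, macrophage and dendritic cell, and T cell lists were fixed with the earlier results of the series known. Their part in the levels of Mmp2, Mmp3, Mmp25 and Adam8 was not tested.

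Neutrophil markers (10 genes, 6 tested) summed to 8.23 to 8.71 CPM in G144, 22.3 to 87.8 in G164, 15.5 to 30.3 in G184 and 8.30 to 8.90 in G174, and tumor 6 of G164 with the highest sum also had the highest Mmp8. Of the 6, Csf3r and S100a9 were higher in the heterozygous comparison, Csf3r was lower in the homozygous comparison, and 4 were lower in the difference (Camp, Csf3r, S100a8 and S100a9). Unlike Mmp8, Mmp9 was highest in tumor 6 of G174, where the neutrophil sum was 8.30 CPM, and Mmp25 was highest in G184. Basal and myoepithelial markers summed to 355 to 433, 795 to 932, 309.7 to 981 and 133 to 431 CPM, with no gene past the threshold by edgeR in either comparison (0 and 2 at an unadjusted p under 0.05, 0 and 1 by DESeq2), and tumor 9 of G184 had the highest sum beside the highest Timp3. Squamous markers summed to 96.9 to 149 CPM in G164 and 4.21 to 14.1 in the other tumors, with 2 of 7 tested genes (Krt10 and Ivl) higher in the heterozygous comparison. Adipocyte markers summed to 32.7 to 39.7, 53.6 to 102, 46.9 to 64.3 and 27.6 to 37.2 CPM, with Lep and Pparg higher in the heterozygous and lower in the homozygous comparison, and endothelial markers to 141 to 222 CPM in all tumors, with Vwf higher in the heterozygous and Kdr lower in the homozygous comparison. In each of the 10 lists no gene was at 0 in all tumors. The part of these cells in the results was not tested.

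Other genes of pericellular proteolysis were taken from 5 lists. In the plasminogen system, whose urokinase activates pro-MMPs by way of plasmin, 0 of 8 tested genes passed by edgeR in either comparison (1 and 2 at an unadjusted p under 0.05, 0 and 1 by DESeq2). Of 4 proprotein convertases, which activate ADAMs and membrane MMPs, Pcsk6 alone was higher in the homozygous comparison (log2 1.03, adjusted p = 0.0349). It had 12.0 and 17.7 CPM in G144, 11.6 and 16.9 in G164, 12.4 and 13.3 in G184, and 26.7 and 25.7 in G174. Of 8 tested ADAM cofactors, which carry Adam10 and Adam17 to the surface, Tspan17 alone passed by edgeR in the heterozygous or the homozygous comparison. It was lower in the homozygous comparison (log2 -0.70, adjusted p = 0.0485), where DESeq2 called 2 cofactors. Tspan17 was also lower in the difference (log2 -1.08, adjusted p = 0.0252), and Frmd8 was higher in G184 than in G144 (log2 0.46, adjusted p = 0.0362).

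Among 7 tested inhibitors and inducers, Cd44, the hyaluronan receptor that docks MMPs on the cell surface, was higher in the heterozygous comparison (log2 0.88, adjusted p = 0.0347), with 96.6 and 102 CPM in G144, 191 and 175 in G164, 172 and 224 in G184, and 151 and 127 in G174. The tumors of G144 were the lowest. Between the Cre- mice Cd44 was also higher in G184 (log2 1.00, adjusted p = 0.0121), and G164 against G184 gave -0.12 ± 0.15. In the difference between the comparisons Cd44 and Reck, a membrane inhibitor of MMPs, were lower (log2 -1.39 and -1.29, adjusted p = 0.00667 and 0.0245) and Bsg, the MMP inducer basigin, was higher (log2 0.93, adjusted p = 0.0322). Reck was also higher in G184 than in G144 (log2 0.92, adjusted p = 0.0372). By edgeR no gene of this list passed in the homozygous comparison, with 5 at an unadjusted p under 0.05 and 5 called by DESeq2. Of 7 tested other metalloproteinases, Phex alone was called, lower in the homozygous comparison (log2 -1.32, adjusted p = 0.0420).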

How the data were processed

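The authors made libraries with a stranded total RNA kit after ribosomal RNA removal, sequenced them on 4 lanes in each of 2 runs (64 lane files), used STAR for alignment to GRCm38 (mm10), and deposited the raw gene counts that STAR gives for each lane. A further deposited table holds unstranded counts summed per mouse, and served here only to find the protein-coding members. The rows that name no gene were left out, and 48% to 52.3% of a tumor's counted reads were in genes. Reverse-strand counts were summed over lanes and runs to 8 tumors. Genes were kept by filterByExpr (22187 of 55385, 99.96% of counts), scaled by TMM and tested by the quasi-likelihood method of edgeR 4.0.16 (R 4.3.3), with mouse as the group, all 8 tumors in the fit and Benjamini-Hochberg adjustment over all genes tested. The threshold was 0.05, the SE is the log2 fold change over the root of its F statistic, and the residual degrees of freedom were 4. CPM use the TMM-scaled library sizes, and levels per kilobase use the exon length of GENCODE M21 (84 of 84 members). DESeq2 1.42.0, other scalings, no filter, unstranded counts, single runs, the mice compared alone, left-out tumors and sums per mouse were the alternatives.

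Named members were those past the threshold in any comparison, all TIMPs, the 10 highest per kilobase and the tested genes of the Mmp cluster. Mmp9 and the markers named singly were added after their values had been seen. The members, the marker lists and the partner lists were chosen with earlier results of these data known.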

Additional observations from a re-analysis of the deposited data

Results flagged for a closer look

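The homozygous and heterozygous log2 fold changes differed, by edgeR's test of the difference itself, for 21 members. Of the 61 tested, 6 were called higher and 15 lower, against 12% and 13.1% of all genes. The difference was negative for Mmp3 (-3.57), Mmp2 (-2.55), Mmp27 (-2.41), Mmp25 (-2.30) and Mmp19 (-1.44) among the matrix metalloproteinases, for Adamtsl1 (-3.40), Adamts6 (-1.83), Adamts5 (-1.32), Adamts2 (-1.13) and Adamts9 (-0.83) among the ADAMTS group, and for Adam23 (-1.44), Adam8 (-1.23) and Adam15 (-0.68) among the ADAMs. The inhibitors Timp4 (-4.92) and Timp3 (-3.18) were negative as well. It was positive for Adamts18 (4.16), Mmp10 (4.12), Adamts14 (2.16), Adamts4 (1.54), Adamts10 (1.03) and Adam9 (0.77). Not all of these held under other settings. With unstranded counts the Timp4 difference was 0.0039, and by DESeq2 Mmp10 and Mmp27 missed the threshold (adjusted p = 0.0512 and 0.0660). The contrast cannot be told apart from that of the younger with the older mice, since each comparison holds a mouse of either age.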

How the results depend on the processing

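The number of members called depended on the test and the filter. In the heterozygous comparison (4 called) it was 13 with no filter, 11 by DESeq2, 9 when only the mice compared were fitted and 0 with the control mice exchanged, an alternative added after the data were seen. The share of all genes called was 4.01% in the reported fit and 6.59%, 12.6%, 6.63% and 0.424% under these settings. In the homozygous comparison (8 called) it was 15, 17, 4 and 0 members, with 13.1% of all genes called in the reported fit and 11.5%, 20.6%, 4.67% and 0.0901% under the same settings. Between the control mice (7 called) it was 16 with no filter and 13 by DESeq2, with 12.6% of all genes called in the reported fit, 10.5% and 20.2%. Leaving out 1 tumor at a time gave 0 to 5, 2 to 7, 8 to 21 and 0 to 8 members in the heterozygous, the homozygous, the difference and the control comparison, where a mouse left with a lone tumor was assumed to vary like the others. At counts of 0 by edgeR in the exchanged pairings, 7 and 8 members had an unadjusted p under 0.05, and 0 and 4 were called by DESeq2. No share of all genes is given for these counts. Other scalings, unstranded counts and single runs kept each count within 1.5 times. The sign of the Timp4 difference reversed with unstranded counts (0.0039 on the log2 scale). No other call changed sign under any setting run, and the cause of the lost calls was not tested. Depth limits Mmp10, Mmp7, Timp4 and the untested members, which rest on few counts.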
